A study of Mus musculus with 7 samples.

Results

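The 8 genes described here make, break down or control liver glycogen. Gys2, Gbe1 and Ugp2 encode enzymes of synthesis, Pygl and Phka2 encode liver glycogen phosphorylase and a subunit of the kinase that activates it, and Ppp1r3b, Ppp1r3c and Ppp1r3g encode subunits that bring protein phosphatase 1 to glycogen. They were picked by symbol among the 35556 probe sets of a liver mRNA time course, each by its probe set of highest mean level. Every one of the 8 has exactly 1 probe set that names it alone, and all 8 passed the expression minimum that left 12076 probe sets for testing. Gys2, Gbe1 and Ugp2 mRNA peaked between ZT10.0 and ZT13.6, around the onset of darkness and feeding, whereas Ppp1r3c peaked at ZT22.7, with its lowest value on the array where these 3 were highest. The phosphorylase mRNA differed by at most 1.13-fold between any pair of arrays.

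Liver glycogen stores glucose after meals and releases it between them. Uridine diphosphate glucose pyrophosphorylase, the product of Ugp2, makes the activated glucose that glycogen synthase (Gys2 in liver) adds to growing chains, and the branching enzyme (Gbe1) introduces the branch points. Phosphorylase (Pygl) removes glucose units once phosphorylase kinase has phosphorylated it. Protein phosphatase 1 reverses that phosphorylation and activates the synthase by removing phosphate from it, and its targeting subunits decide how much of the phosphatase sits on glycogen.

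Livers came from C57/BL6 male mice, 9 to 11 weeks old when a 2 week period of housing under 12 h of light and 12 h of darkness began. Food was then given only from ZT12 to ZT24 for 7 days, where ZT0 is lights on and ZT12 lights off, so that light and fasting coincide in all animals and cannot be told apart. Mice were killed every 4 h from ZT02 to ZT26, the last time being ZT02 of the following cycle. For each time, 500 ng of RNA from each of 5 mice were pooled and hybridised to a single Affymetrix Mouse Gene 1.0 ST array, which reads each gene through a set of probes. Light arrays are therefore ZT02, ZT06, ZT10 and ZT26 (n = 4), and dark arrays are ZT14, ZT18 and ZT22 (n = 3). With 1 pool per time there is no spread between mice. Errors of peak times, amplitudes and fitted folds measure only how far the 7 pools lie from a 24 h cosine. Those of dark minus light measure only the spread of arrays within light and within dark. Both borrow spread across all tested probe sets. Levels are given in units, that is 2 raised to the deposited log2 value, and were not compared between genes because probe sets differ in brightness.

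The arrays had medians of 6.37 to 6.40 in log2 and a mean correlation of each with the others of 0.991 to 0.993. The deposited values were already normalised between arrays, and differences between genes raise such correlations. Neither value therefore measures how alike the pools are. The time labels were checked on clock genes, of which Arntl peaked at ZT22.8, Nr1d1 at ZT7.18, Dbp at ZT10.9 and Per2 at ZT15.1. The summed level of 7 hepatocyte markers ranged from 87458 to 91325 units. With no other tissue to set this against, it does not check the liver label. Limma called 0 of the 7 rhythmic, against 4.47% of all tested probe sets. An unadjusted p under 0.05 by limma was reached by 0 of 7, against 25.7% of all tested probe sets. These counts describe change over the day and do not bear on the tissue. As the RNA is from whole liver, fewer cells of a type and less RNA per cell cannot be told apart.

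The promoter of Ppp1r3c, the gene of largest range, is shown beside those of Gbe1 and Ugp2, synthesis enzymes with other peak times. RefSeq promoters of build GRCm38.p6 held 6 of the 8 genes, all but Gys2 and Ppp1r3b, and the 250 bases before the start site were searched on both strands for 6 motifs. Ppp1r3c (chr19:36736605-36736854, minus strand) carries the E-box CACGTG from 104 to 99 bases before its start, and the variant CACGTT from 189 to 184 bases before it. Both are in capitals. Gbe1 (chr16:70313699-70313948, plus strand) and Ugp2 (chr11:21371268-21371517, minus strand) hold none of the motifs. Each is written 5′ to 3′.
Ppp1r3c: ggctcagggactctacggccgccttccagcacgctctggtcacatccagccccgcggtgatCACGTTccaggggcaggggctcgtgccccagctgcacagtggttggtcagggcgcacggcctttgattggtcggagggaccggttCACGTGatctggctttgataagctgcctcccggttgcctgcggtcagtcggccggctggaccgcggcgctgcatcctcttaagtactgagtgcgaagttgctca
Gbe1: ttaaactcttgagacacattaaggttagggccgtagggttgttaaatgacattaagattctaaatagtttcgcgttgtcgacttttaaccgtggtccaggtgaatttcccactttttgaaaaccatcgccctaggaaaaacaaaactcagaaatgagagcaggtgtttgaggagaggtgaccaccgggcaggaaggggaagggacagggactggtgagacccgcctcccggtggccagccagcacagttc
Ugp2: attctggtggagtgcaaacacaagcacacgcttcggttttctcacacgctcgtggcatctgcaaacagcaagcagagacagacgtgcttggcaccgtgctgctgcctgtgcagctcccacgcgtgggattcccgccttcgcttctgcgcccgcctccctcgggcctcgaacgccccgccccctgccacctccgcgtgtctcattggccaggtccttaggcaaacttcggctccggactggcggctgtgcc
Among all 32851 promoters in RefSeq cut to 250 bases, 6.02% hold CACGTG and 3.85% hold CACGTT. The other motifs were the D-box (TTATGTAA or TTACGTAA, 0.931% of promoters), the ROR element (TAGGTCA or TGGGTCA, 5.38%), the cAMP response element TGACGTCA (1.55%) and the FoxO element TGTTTAC (3.17%). None of these 4 is found in these 250 bases of any of the 6 genes, nor is any of the 6 motifs at the other start site of Ugp2 (chr11:21370630-21370879) or at Pygl, Phka2 and Ppp1r3g. A motif match describes the letters only and was not tested for factor binding.

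Of the 8 genes, 4 had a 24 h rhythm by the cosine test of limma at an adjusted p under 0.05, namely Gys2, Gbe1, Ugp2 and Ppp1r3c. The same test called 4.47% of all tested probe sets. Of the 4, Ugp2 peaked in the light (1.98% of probe sets were called with a light peak) and the other 3 in the dark (2.49%). The median amplitude of the 8 genes, the log2 distance from mean to fitted peak, was 0.48, against 0.09 over all tested probe sets. Because the genes were chosen with results of these arrays known, the count of calls and this median are descriptions only. Neither tests the 8 genes against the other probe sets.

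**Figure D1:**
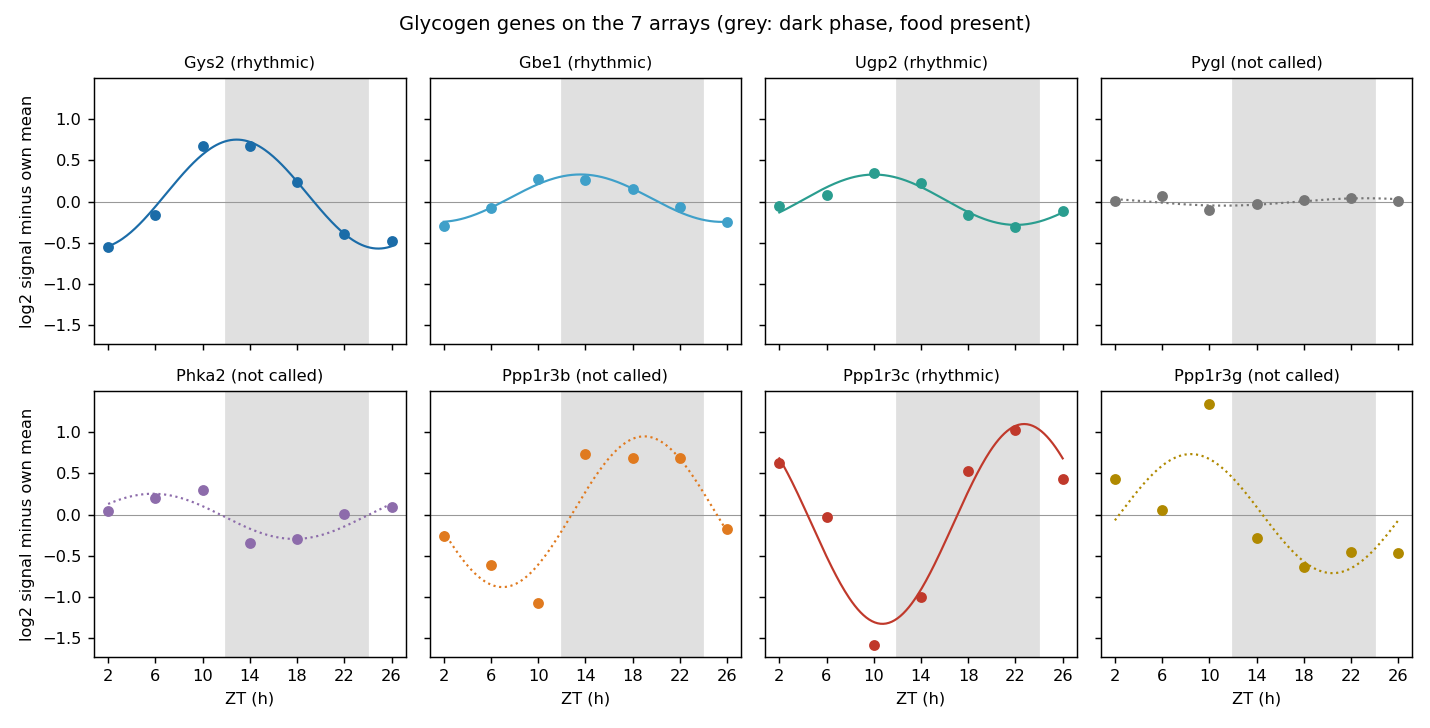
Log2 signal of each gene minus its own mean (vertical axis) on the 7 arrays against time in ZT (h), with the fitted 24 h cosine as a solid line where limma called it and dotted where it did not. Grey marks the dark phase with food. Gys2, Gbe1 and Ugp2 are highest at ZT10, Ppp1r3c is lowest there and highest at ZT22, and Pygl stays within 1.13-fold.

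Gys2, which encodes the liver glycogen synthase, measured 2660 units at ZT02, 3485 at ZT06, 6255 at ZT10, 6225 at ZT14, 4631 at ZT18, 2985 at ZT22 and 2816 at ZT26. The ZT10 and ZT14 arrays, either side of lights off, were highest and differed by 0.01 in log2, and ZT02, ZT22 and ZT26 were lowest. The largest step was the 1.79-fold gain from ZT06 to ZT10, and 1.24% of tested probe sets made as large a step there. The fitted peak fell at ZT12.9 ± 0.272 h (SE) with an amplitude of 0.66 ± 0.04 (SE, log2), a peak-to-trough change of 2.50-fold (95% interval 2.17 to 2.88). The cosine gave an R squared of 0.982, and the adjusted p from limma was 0.00696, which ranked 11 among all tested probe sets. Over all 5040 orders of the time labels, the exact permutation test of R squared gave p = 0.00317. Without the ZT02 array the adjusted p from limma was 0.0528, and with each of the other arrays left out Gys2 was called.

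Gbe1, encoding the branching enzyme, followed the same course over a narrower range. It measured 1915 units at ZT02, 2224 at ZT06, 2845 at ZT10, 2825 at ZT14, 2615 at ZT18, 2242 at ZT22 and 1973 at ZT26. As for Gys2, ZT10 and ZT14 were highest and within 0.01 in log2 of each other, and the ZT02 and ZT26 arrays were lowest. Its fitted peak lay at ZT13.6 ± 0.509 h (SE), the amplitude was 0.29 ± 0.03 (SE, log2), and the peak-to-trough change was 1.49-fold (95% interval 1.33 to 1.67, adjusted p = 0.0257 by limma). In the exact permutation of time labels p was 0.0143. The call held with 6 arrays only when ZT22 was the one left out, and the highest adjusted p from limma was 0.0863, without ZT02. The fold itself stayed between 1.44 and 1.56.

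Ugp2, which supplies the activated glucose, had an earlier fitted peak than Gys2 and Gbe1. It measured 1965 units at ZT02, 2168 at ZT06, 2607 at ZT10, 2388 at ZT14, 1823 at ZT18, 1648 at ZT22 and 1900 at ZT26. The ZT10 array was highest, and the ZT18 and ZT22 arrays in the dark were below every light array. The peak was fitted at ZT10.0 ± 0.472 h (SE), with an amplitude of 0.31 ± 0.04 (SE, log2) and a change of 1.53-fold (95% interval 1.34 to 1.74, adjusted p = 0.0308 by limma). Permuting the time labels gave an exact p of 0.00556. With 1 array left out it was called only without ZT06, and the adjusted p from limma reached 0.111 without ZT10, at folds of 1.49 to 1.60.

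Pygl, the phosphorylase that releases glucose from glycogen in liver, showed no rhythm that the test could detect. Its values were 2718 units at ZT02, 2837 at ZT06, 2519 at ZT10, 2659 at ZT14, 2758 at ZT18, 2785 at ZT22 and 2718 at ZT26. The lowest array was ZT10 and the highest ZT06, its neighbour in time. A range as wide or wider was seen in 81.0% of tested probe sets. The fitted fold was 1.06 with a 95% interval of 0.950 to 1.19 (adjusted p = 0.646 by limma). A peak-to-trough fold cannot lie below 1, so this interval is approximate and sets no firm upper limit on a rhythm. The ZT02 and ZT26 values of Pygl are identical, as they are for 3112 of the 35556 probe sets (8.75%).

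Phka2 encodes the liver form of the alpha subunit of phosphorylase kinase, which is mutated in an X-linked glycogen storage disease. It measured 825.9 units at ZT02, 922.7 at ZT06, 982.3 at ZT10, 631.2 at ZT14, 651.6 at ZT18, 802.3 at ZT22 and 849.1 at ZT26. All 3 dark arrays lay below all 4 light arrays, as was so for 4.45% of tested probe sets. The largest step was the 1.56-fold lower value at ZT14 than at ZT10 (3.06% of tested probe sets made as large a step). The cosine had an amplitude of 0.27 ± 0.07 (SE, log2) with a peak at ZT5.79 ± 0.976 h (SE), and it was not called (adjusted p = 0.135 by limma). The mean of the dark arrays was 0.37 ± 0.10 (SE) lower in log2 than that of the light arrays, with an adjusted p from limma of 0.403 and an exact permutation p of 0.0286 over the 35 splits, unadjusted and the smallest that 3 against 4 arrays allow.

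Ppp1r3c encodes protein targeting to glycogen, a subunit that binds phosphatase, synthase and phosphorylase together on the particle. It measured 1403 units at ZT02, 890.4 at ZT06, 305.1 at ZT10, 456.8 at ZT14, 1315 at ZT18, 1854 at ZT22 and 1223 at ZT26. The ZT10 and ZT14 arrays, where Gys2 and Gbe1 were highest, were its lowest, and ZT22 was its highest. The drop from ZT06 to ZT10 was 2.92-fold and the gain from ZT14 to ZT18 was 2.88-fold, steps matched by 0.282% and 0.166% of tested probe sets. It had the largest amplitude of the 8 genes, 1.21 ± 0.14 (SE, log2), ranked 27 of all tested. The peak was at ZT22.7 ± 0.449 h (SE), and the change was 5.36-fold (95% interval 3.31 to 8.67, adjusted p = 0.0257 by limma, exact permutation p = 0.00317). With 6 arrays the call held without ZT06 and without ZT18, and the highest adjusted p from limma was 0.101, without ZT14. The peak moved between ZT22.1 and ZT23.2 and the fold between 4.18 and 6.57.

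The summed markers of Kupffer cells, the resident macrophages, were also lowest at ZT10. Fitted peaks of the single markers ran from ZT22.7 (C1qa) to ZT1.93 (Cd5l), and bright probe sets weigh most in such sums. Of the 8 markers, 5 were called by limma, where the share over all tested probe sets was 4.47%. The summed level of the 8 ranged from 4959 units at ZT10 to 7942 at ZT26, a 1.60-fold range against 6.08-fold for Ppp1r3c. Summed lymphocyte markers ranged from 204.0 units at ZT10 to 307.7 at ZT26 (4 of 6 on the array, 2 of them at or below the background of 43 units). Cholangiocyte markers summed to 389.2 units at ZT10 and 660.9 at ZT26 (4 of 5 on the array). Of these 4 only 1, Sox9, passed the expression minimum, and it ranged from 190 to 449 units. Krt19, Krt7 and Epcam lay below the minimum. Stellate cell markers summed to 6649 units at ZT10 and 7996 at ZT22, the lowest and highest arrays of Ppp1r3c, and endothelial markers to 4877 at ZT02 and 6321 at ZT22. The part of these cells in the values of Ppp1r3c, or of the genes that were highest at ZT10, was not tested.

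Ppp1r3b encodes the liver-type subunit, which also binds active phosphorylase and through it responds to the state of breakdown. It measured 749.8 units at ZT02, 587.8 at ZT06, 426.7 at ZT10, 1492 at ZT14, 1440 at ZT18, 1445 at ZT22 and 795.5 at ZT26. The 3 dark arrays lay within 0.05 of each other in log2 and all were above all 4 light arrays, which ranged over 1.86-fold with the lowest at ZT10. That separation in this direction was shared by 4.23% of tested probe sets. From ZT10 to ZT14, across lights off and the return of food, the level was 3.50-fold higher (0.0911% of tested probe sets made as large a step), and from ZT22 to ZT26 it was 1.82-fold lower (0.282%). The dark mean exceeded the light mean by 1.23 ± 0.21 (SE, log2). The adjusted p from limma was 0.403, at an unadjusted p of 0.000585, and the exact permutation of arrays gave 0.0286, the smallest it can give. The cosine gave a change of 3.55-fold (95% interval 2.04 to 6.17) and a peak at ZT19.0 ± 0.626 h (SE), and it missed the threshold with an adjusted p of 0.0588 by limma. A cosine and a plain step between light and dark gave an R squared of 0.825 and 0.838. The cosine uses both a cosine and a sine term, whereas the step uses only a difference of means, so the values are not of like fits.

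Ppp1r3g, a further targeting subunit of liver, stood out on a single array. It measured 207.4 units at ZT02, 160.1 at ZT06, 391.3 at ZT10, 126.7 at ZT14, 99.5 at ZT18, 112.6 at ZT22 and 111.1 at ZT26. ZT10 was 1.89-fold above the next array, and the lowest 4 values were those from ZT14 to ZT26. It was not called (amplitude 0.72 ± 0.26 SE in log2, peak at ZT8.43 ± 1.22 h, adjusted p = 0.246 by limma). Without ZT10 the fitted fold went from 2.72 to 1.64. Its ZT26 value was 1.87-fold below its ZT02 value, a gap as large in 0.166% of tested probe sets.

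**Figure D2:**
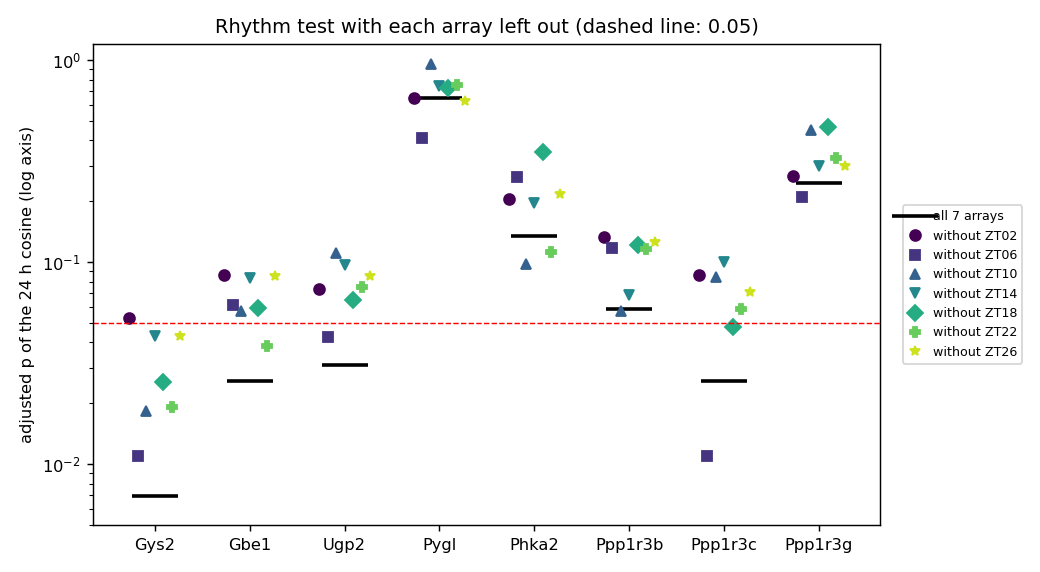
Adjusted p of the 24 h cosine from limma (log axis) for each gene with all 7 arrays (black bar) and with each array left out (symbols), with a dashed line at 0.05. Gys2 stays at or under 0.0528, whereas Gbe1 and Ugp2 pass in 1 of 7 cases each, Ppp1r3c in 2 of 7, and the other 4 genes in none.

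The 3 targeting subunits thus had their highest arrays at 3 different times, ZT14 for Ppp1r3b, ZT22 for Ppp1r3c and ZT10 for Ppp1r3g. The peak times of the 4 called genes were compared in 6 pairs, with 95% intervals that include the residual covariance between genes. Gbe1 peaked 0.693 h after Gys2, an interval of -0.351 to 1.74 h that holds 0. Ugp2 preceded Gys2 by 2.86 h (1.74 to 3.98 h) and Gbe1 by 3.55 h (1.69 to 5.41 h). The distance from Gys2 to Ppp1r3c was 9.85 h (9.06 to 10.6 h, or 8.59 to 11.1 h with the covariance left out), short of full opposition, and that from Gbe1 to Ppp1r3c was 9.15 h (7.64 to 10.7 h). Ugp2 and Ppp1r3c lay 11.3 h apart (10.5 to 12.1 h), and only in this pair did the interval hold 12 h. In these fits the order of peaks was Ugp2, then Gys2 and Gbe1 without a separation between them, then Ppp1r3c. The intervals hold no spread between mice, and the covariance rests on 4 residual degrees of freedom. Arrays were 4 h apart, and Gys2, Gbe1 and Ugp2 all had their highest array at ZT10. The place of Ugp2 before Gys2 and Gbe1 thus rests on the fitted cosines, and whether it holds between mice was not tested.

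**Figure D3:**
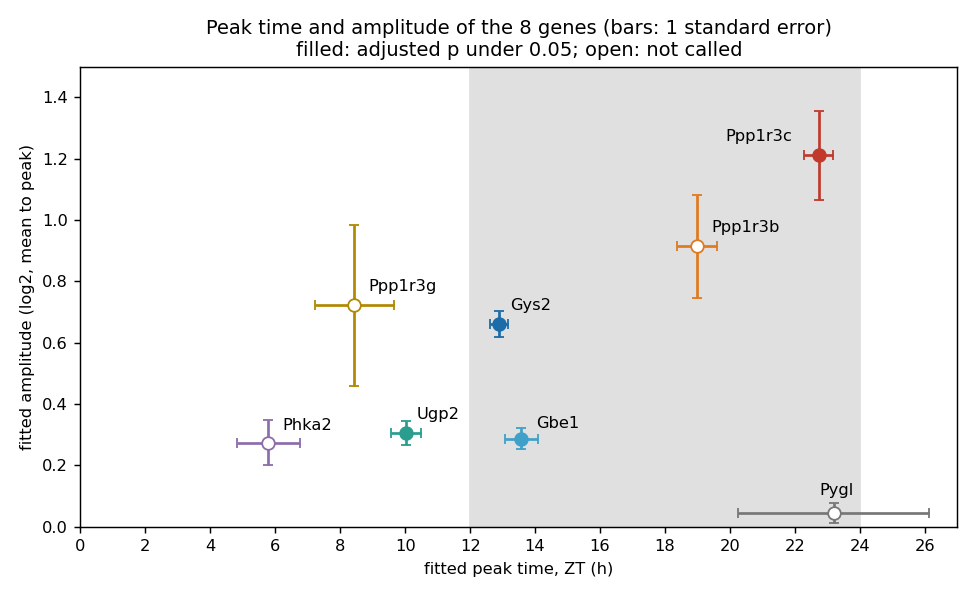
Fitted peak time in ZT (h, horizontal) and fitted amplitude (log2, mean to peak, vertical) of the 8 genes, with bars of 1 standard error, filled where limma called the rhythm and open where it did not. Grey marks the dark phase. The synthesis enzymes Ugp2, Gys2 and Gbe1 sit from ZT10.0 to ZT13.6 with amplitudes of 0.29 to 0.66, and Ppp1r3c sits at ZT22.7 with 1.21.

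The highest array exceeded the lowest 3.50-fold for Ppp1r3b, 6.08-fold for Ppp1r3c and 3.93-fold for Ppp1r3g, while the 3 synthesis enzymes ranged from 1.49-fold (Gbe1) to 2.35-fold (Gys2). Of all tested probe sets, 0.928%, 0.257% and 0.654% had ranges as wide as those of the 3 subunits, 2.48% as wide as Gys2, 12.4% as wide as Ugp2 and 17.3% as wide as Gbe1. A range above 1.5-fold was found in 16.3% of tested probe sets and in 6 of the 8 genes, a range above 2-fold in 4.27% and in 4, and a range above 5-fold in 0.331% and in Ppp1r3c alone among the 8. A limma call together with a fitted change above 2-fold was met by 2 of the 8 genes, Gys2 and Ppp1r3c, and by 1.4% of probe sets. The study's methods set looser thresholds (one-period p under 0.25, fold above 1.5), met by either RNA polymerase II occupancy or mRNA, with a minimum for both signals. Applied here to mRNA alone, these thresholds passed 6 of the 8, all but Gbe1 and Pygl, and 13.6% of probe sets. Passing is therefore not the study's own selection. Without the ZT10 array, left out here after the values were seen, the ranges of the subunits were 2.54-fold for Ppp1r3b, 4.06-fold for Ppp1r3c and 2.09-fold for Ppp1r3g, the last of these below the 2.34-fold of Gys2. As the genes were chosen with results of these arrays known, their counts beside the shares of all probe sets are descriptions only. The subunits and the enzymes were not tested against each other as groups.

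**Figure D4:**
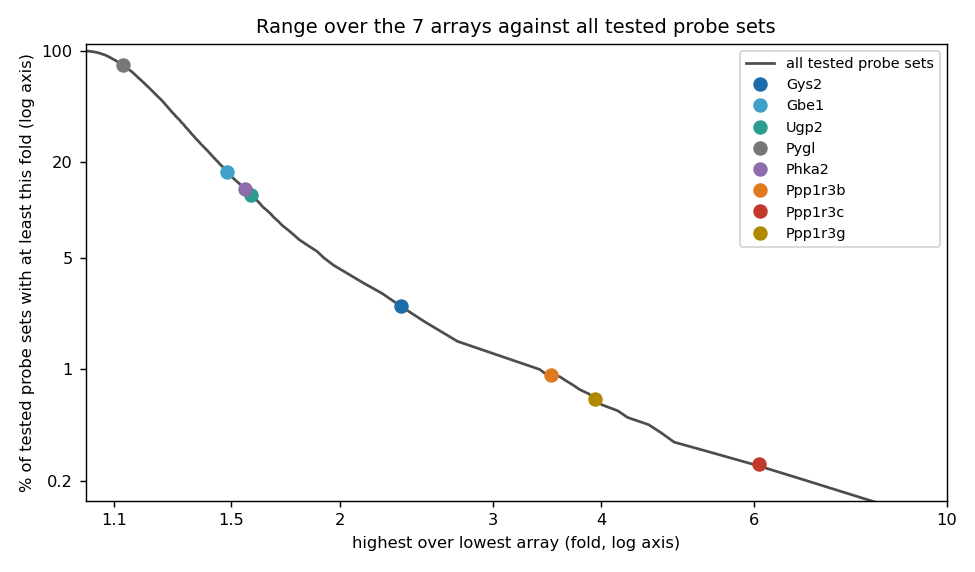
Share of tested probe sets (%, log axis) whose highest array exceeds the lowest by at least a given fold (log axis), as a line, with the 8 genes as points. Pygl lies near the narrow end at 1.13-fold and Ppp1r3c at the wide end at 6.08-fold, where 0.257% of probe sets reach it.

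All 8 genes had either their highest or their lowest value at ZT10, the last array before food returned. Gys2, Gbe1, Ugp2, Phka2 and Ppp1r3g were highest there, and Pygl, Ppp1r3b and Ppp1r3c were lowest. This was noticed after the values were seen, and 35.5% of all tested probe sets had their highest or lowest value on that array (17.9% and 17.5%). ZT14 was the extreme array as often, for 35.6%.

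For the other 6 genes the dark and light arrays were compared in the same way. Values overlapped between dark and light in each of them, with differences of dark minus light of 0.30 for Gys2, 0.21 for Gbe1, -0.15 for Ugp2, 0.02 for Pygl, 0.33 for Ppp1r3c and -0.79 for Ppp1r3g in log2 (adjusted p from limma of 0.488 to 0.908). Over all 12076 probe sets limma called 0 in either direction, while 1357 (11.2%) had an unadjusted p under 0.05. The rhythms of Gys2 and Gbe1, centred near lights off, and of Ppp1r3c, centred near lights on, fall across this division.

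The ZT02 and ZT26 arrays sample the same hour from different mice. For Gys2, Gbe1, Ugp2, Pygl, Phka2 and Ppp1r3b they differed by at most 0.09 in log2, which is the median absolute difference over all tested probe sets. Ppp1r3c was 0.20 lower at ZT26, within the 95th percentile of 0.34, and Ppp1r3g was 0.90 lower, beyond it. Set against the range over the day, the gap was 4.72% for Ppp1r3b, 6.67% for Gys2, 7.58% for Ppp1r3c and 45.6% for Ppp1r3g.

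Other genes of the pathway were taken from lists. Of 23 other genes of glycogen metabolism with a probe set that names them alone, 19 passed the expression minimum, and limma called 0 of 19, where the share over all tested probe sets was 4.47%. An unadjusted p under 0.05 was found for 3 of the 19, against 25.7% of all tested probe sets. Their median amplitude was 0.10, against 0.09 over all tested probe sets. The 3 were Gys1, the synthase of muscle and other tissues (unadjusted p = 0.0126 by limma), Gsk3a, a kinase that phosphorylates the synthase (0.0131), and Ppp1ca, a catalytic subunit of the phosphatase (0.0386), chosen for mention after their values were seen. The 4 below the minimum were Pygm, Phkg1, Ppp1r3a and Ppp1r3f, with means of 66.4, 19.0, 12.4 and 43.3 units, of which the first 3 are the muscle forms of phosphorylase, of a kinase subunit and of the targeting subunit. Of the 5 tested genes of glucose entry and exit, limma called 2, against 4.47% of all tested probe sets. Slc37a4, which carries glucose phosphate into the endoplasmic reticulum, changed 2.07-fold with a peak at ZT14.3 (adjusted p = 0.00439 by limma). Slc2a2, the glucose transporter of hepatocytes, peaked at ZT11.7, and these peaks lie either side of that of Gys2 (ZT12.9). The genes of this list that were not called had fitted peaks elsewhere, at ZT23.1 (Gckr), ZT1.17 (G6pc) and ZT7.74 (Pck1). Of 9 tested genes of insulin, glucagon and protein kinase A signalling, 0 were called by limma (4.47% of all tested probe sets) and 5 had an unadjusted p under 0.05 (25.7%).

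The genes whose course was most like that of Gys2 among 10965 others, by Pearson correlation of log2 values over the 7 arrays, were Bnip3 (r = 0.995), Rab4a (0.991), Pitpnm2 (0.989), Ak4 (0.987) and Dgat2 (0.985). Their fitted peaks lay between ZT12.8 and ZT13.3. For Ppp1r3c they were 4932438A13Rik (0.993), H2bc4 (0.990), Tuba4a (0.985), Tmem147 (0.985) and Hacl1 (0.983), with peaks between ZT22.6 and ZT23.2. The 7 points share arrays and normalisation, and the nearest of 10965 genes were picked for their correlation, so no test was made.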

How the data were processed

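Liver RNA pools of 7 times were read on 1 array each. The deposited values are log2 signals that the authors made with RMA in Affymetrix Expression Console 1.1.2637.26569, per the labels, so that background correction, normalisation between arrays and summary over probes preceded this work. Of 35556 probe sets, 21789 have a single gene symbol in the platform annotation, 1621 several and 12146 none. For the 12076 that carry 1 symbol and average more than 85 units, cosine and sine terms of 24 h were fitted with limma 3.58.1 in R 4.3.3 and tested jointly by the moderated F-test with Benjamini-Hochberg adjustment over all of them (4 residual degrees of freedom). ZT26 entered at the clock time of ZT02. Peak times and amplitudes have delta-method errors. Dark minus light used limma on 3 against 4 arrays. The scripts were tested on simulated data. Members and gene lists were chosen with earlier results of these data known. Named were the 8 genes, rhythmic genes of the pathway lists, 4 clock genes, and the 5 genes most like Gys2 and most like Ppp1r3c. The check of extreme arrays, the ranges without ZT10 and the intervals without covariance were added after the data were seen. The number of arrays limits the precision.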

Additional observations from a re-analysis of the deposited data

How the results depend on the processing

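With 1 array per time the calls lean on each array. Leaving out each array in turn, the count of the 8 genes called rhythmic by limma ran from 0 (without ZT02) to 3 (without ZT06), against 4 with all arrays, and the count over all probe sets from 13 (without ZT02) to 312 (without ZT22), against 540. Fits on the natural scale called 2 of the 8 genes and 68 probe sets, the mean of ZT02 and ZT26 as 1 point gave 1 and 93, a linear drift term gave 1 and 98, and no filter on the mean gave 1 and 57. In each of the last 3, Gys2 was the gene called. Adding 12 h terms called 353 probe sets and a filter at 43 units called 321, with 4 of the 8 genes in both. Fisher's test for one period with Benjamini-Hochberg adjustment called 0 genes of the 8 and 0 probe sets. At an unadjusted p under 0.05 that test gave 2101 probe sets and limma 3100. The looser thresholds of the study's methods, applied to mRNA alone, passed 1645 probe sets (13.6%) and 6 of the 8 genes. With each array left out, amplitudes lay between 0.61 and 0.69 for Gys2, 0.26 and 0.32 for Gbe1, and 0.29 and 0.34 for Ugp2. They lay between 1.03 and 1.36 for Ppp1r3c. Among the genes not called, they lay between 0.73 and 1.07 for Ppp1r3b and between 0.36 and 0.99 for Ppp1r3g. The distance from Gys2 to Ppp1r3c ran from 9.56 to 10.4 h with each array left out. The dark minus light difference changed sign for Pygl (-0.0127 without ZT10, up to 0.0444 without ZT06) and for Ppp1r3c (-0.152 without ZT10 and -0.0924 without ZT22, up to 0.918 without ZT14), and neither was called in any setting. The cause of these changes was not tested. No paired analysis was possible because each time has a single array. No member has another probe set, so that alternative could not be run. Ppp1r3g had a mean of 172.7 units, from 99.5 at ZT18 to 391.3 at ZT10, against a background of 43. Whether its low signal moved its values was not tested.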
